A study of Mus musculus with 12 samples.

Results

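Fatty acid oxidation breaks acyl chains into acetyl-CoA, and its 30 genes described here cover fatty acid activation, the carnitine shuttle, the mitochondrial spiral, electron transfer, the peroxisomal route and the use of ketone bodies. The genes were chosen by symbol, and all 30 were found among the 20632 genes counted in each of 12 libraries of mouse gonadal (peri-uterine) white fat. By the textbook location of their products, 23 were taken as mitochondrial, 4 as peroxisomal (Acaa1a, Ehhadh, Hsd17b4 and Scp2) and 3 as present in both organelles (Crat, Eci2 and Acad11). All 30 also passed the filter on low counts, which left 12175 genes for testing.

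All libraries came from pregnant mice at E17.5, and the labels give no age of the animals. The 4 wild-type mice were labelled as Tnfrsf11a without Foxn1-Cre and received vehicle (WT vehicle). The knockout mice carried Foxn1-Cre with Tnfrsf11a, which encodes the receptor RANK, and 4 of them received vehicle (KO vehicle) while 4 received a treatment that the labels name only as Treg (KO Treg). No group combines the wild type with that treatment. Foxn1 drives Cre in thymic epithelium, so the labelled deletion is not one of fat cells, and reads from whole fat do not check it. Each library has its own number in the labels, but nothing else says that the animals were separate, so p-values measure the spread between these libraries. The numbers form a lower and a higher series that the labels do not explain: all 4 KO vehicle libraries are in the lower, and WT vehicle and KO Treg have 2 libraries in each, so the series is not balanced against KO vehicle.

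In a fat cell, long-chain fatty acids are activated to acyl-CoA and then either esterified for storage or carried as acylcarnitines into mitochondria. Each turn of the mitochondrial spiral consists of dehydrogenation, hydration, a second dehydrogenation and thiolysis, and the first dehydrogenation passes electrons to the respiratory chain through electron transfer flavoprotein. Peroxisomes shorten very long and branched chains with their own enzymes. White fat mainly stores fatty acids, whereas brown and beige fat cells, which carry the uncoupling protein Ucp1, burn them, and PPAR transcription factors raise many of these genes.

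Library totals ran from 5551967 to 12972655 counts, and a count of 3 corresponded to 0.241 to 0.539 CPM (the usual library-scaled unit, with no correction for gene length), a limit that covers counting error only. Adiponectin (Adipoq), a fat cell marker, was at 3881 to 5993 CPM in every library, and Tnfrsf11a itself at 4.66 to 10.6 CPM. The 10 brown or beige fat markers, however, summed to 5899 CPM in the library WT vehicle 1, to 2321 in KO vehicle 2 and to 1310 in KO vehicle 3, against 64.6 to 471 in the other 9 libraries. Placental transcripts summed to 30.1 CPM in KO vehicle 1 and to 78.0 in KO Treg 2, and to between 0 and 1.52 elsewhere. Over all genes tested, 0.279% passed an adjusted p of 0.05 (edgeR's quasi-likelihood test, adjusted by Benjamini-Hochberg) in KO vehicle against WT vehicle, 0.00821% in KO Treg against KO vehicle and 0% in KO Treg against WT vehicle. In bulk tissue, fewer cells of a type and less RNA per cell cannot be told apart.

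PPAR and the related orphan receptors bind DNA elements built on the letters AGGTCA, so the promoters of the 30 genes were searched for them, since several of these genes varied together between libraries. Among 25 of the 30 genes with a RefSeq promoter (GRCm38.p6, 250 bases before to 50 after the start, both strands), 5 held AGGTCA or its complement TGACCT, against 16.3% of all promoters. The capitals in the first 5 lines mark that match, which is a match of letters and not a bound site. The sixth line is the whole gap between the starts of Hadha and Hadhb, which encode the 2 subunits of the mitochondrial trifunctional protein and point away from each other, with the letters GGGCGG, a binding motif of Sp-family factors, in capitals.
Cpt1a, chr19:3323195-3323224, plus strand, match 94 to 89 bases before the start: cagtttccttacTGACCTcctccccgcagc
Acadm, chr3:153944875-153944893, minus strand, match 249 to 244 bases before the start: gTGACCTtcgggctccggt
Acadvl, chr11:70015498-70015527, minus strand, match 87 to 82 bases before the start: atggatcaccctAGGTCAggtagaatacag
Echs1, chr7:140116487-140116516, minus strand, match 83 to 78 bases before the start: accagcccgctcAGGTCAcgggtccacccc
Scp2, chr4:108118639-108118668, minus strand, match 109 to 104 bases before the start: gtctaacacagtAGGTCAaaagaacccata
Hadha and Hadhb, chr5:30155163-30155247, plus strand: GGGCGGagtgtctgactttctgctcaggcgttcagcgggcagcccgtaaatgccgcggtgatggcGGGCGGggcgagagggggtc
The gap is 85 bases long, and 22.8% of all promoters hold GGGCGG on either strand in the 85 bases before the start. The letters CCAAT were also sought on either strand of the gap and were not found, and 16.4% of all promoters hold them in those 85 bases. The longer motif AGGTCANAGGTCA, in which AGGTCA is repeated 1 base apart, was in 0 of the 25 and in 0.0396% of all promoters. TNAAGGTCA, an extended single site that contains AGGTCA, was in 0 of the 25 and in 1.28% of all promoters.

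The pattern that stood out among the oxidation genes ran between libraries rather than between groups. The library WT vehicle 1 was the highest of the 12 for 22 of the 30 genes (73.3%), while it was the highest for 9.95% of all genes tested. It was the highest for 17 of the 23 mitochondrial, 3 of the 4 peroxisomal and 2 of the 3 shared genes. Set against the mean of the other 3 WT vehicle libraries, its CPM had a median ratio of 1.71 over the mitochondrial genes and of 1.36 over the peroxisomal ones, beside 0.987 over all genes tested. The ratios of single genes ran from 0.809 for Acot2 to 3.09 for Pdk4. Cpt1a, Acad10, Acad11, Eci1 and Acot2 were not above that mean. KO vehicle 4 was the lowest library for 9 of the 30 genes, but the matching share over all genes tested was not computed, so this count is not read further.

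**Figure D1:**
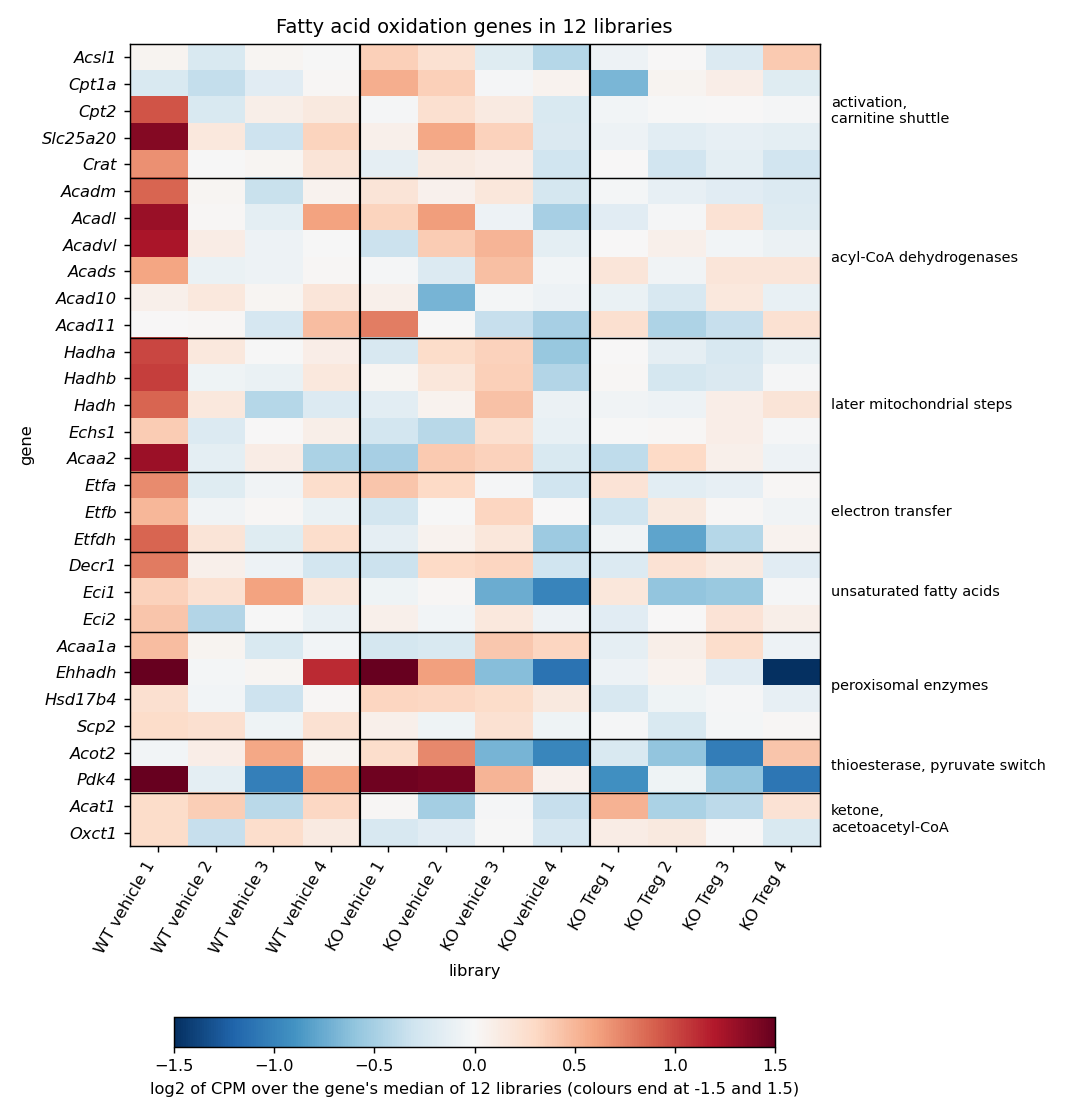
Each row is 1 of the 30 genes and each column 1 of the 12 libraries, in 3 blocks of 4 by group, and the colour gives the log2 of a gene's CPM over its own median of the 12 libraries. The first column, WT vehicle 1, is red through most rows, and the 4 KO Treg columns are pale for most mitochondrial enzymes.

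WT vehicle 1 was also the library with the most Ucp1. Ucp1 stood at 1968, 0.965, 0.539 and 47.4 CPM in WT vehicle libraries 1 to 4, at 0.457, 779, 216 and 0.203 in KO vehicle, and at 0.711, 43.2, 1.40 and 0.121 in KO Treg. Cpt1b, the form of carnitine palmitoyltransferase of muscle and brown fat, followed the same order of libraries at the top, with 120 CPM in WT vehicle 1, 56.0 in KO vehicle 2 and 25.0 in KO vehicle 3 and at most 7.08 elsewhere. Among the oxidation genes, Hadha was at 780 CPM in WT vehicle 1, at 471 and 496 in KO vehicle 2 and 3, and at 264 to 434 in the others. Acadm was at 680 CPM in WT vehicle 1, but at 389 and 420 in KO vehicle 2 and 3, within the 296 to 425 CPM of the others. Since Ucp1 fell into separate ranges (7 libraries at 1.40 CPM or less, 2 at 43.2 and 47.4, and 3 at 216 or more), a correlation with it pooled over all 12 is not given as a result. The part of brown or beige fat cells in the results below was not tested beyond fits that leave these libraries out.

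**Figure D2:**
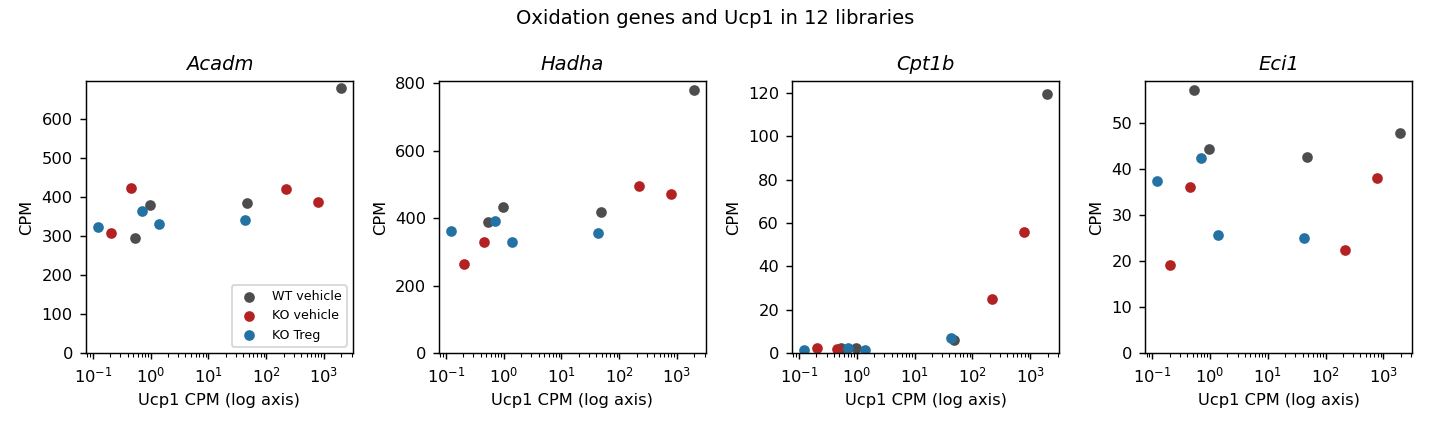
Each point is 1 of the 12 libraries, with Ucp1 CPM on a log axis and the CPM of Acadm, Hadha, Cpt1b or Eci1 on a linear axis from 0, coloured by group. Cpt1b is near 0 except in the 3 libraries of most Ucp1, Acadm and Hadha are high in WT vehicle 1, and Eci1 shows no such order.

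Knockout against wild-type mice, both given vehicle, asks how the Tnfrsf11a genotype bears on these genes. None of the 30 passed an adjusted p of 0.05 in edgeR's quasi-likelihood test, nor in DESeq2 or in limma with voom, where 0.279% of all genes passed in edgeR. At an unadjusted p of 0.05, 2 genes lay higher in the knockout (Cpt1a and Hsd17b4) and 1 lower (Eci1), which is 10% of the 30 beside 12.4% of all genes. The log2 fold change was below 0 for 24 of the 30, with a median of -0.19, against 50.8% of all genes and a median of -0.0039. Without WT vehicle 1, 13 of the 30 were below 0 and the median was 0.05. That fit keeps KO vehicle 2 and KO vehicle 3, the other libraries of most Ucp1. Without all 3 of these libraries, 19 of the 30 were below 0 and the median was -0.15, with 2 KO vehicle libraries left. Within the lower number series, which holds 2 WT vehicle libraries, 26 of the 30 were below 0, with a median of -0.36. Markers of cell types also differed in this comparison, none past the test. All 9 brown or beige fat markers tested were below 0 (median of -0.76, 0 at an unadjusted p of 0.05 in edgeR). All 8 smooth muscle markers were below 0 (median of -1.60, 5 at an unadjusted p of 0.05, summed CPM of 273 to 2127 in WT vehicle and 338 to 842 in KO vehicle). So were 5 of 7 skeletal muscle markers (median of -1.12, 3 at that p, summed CPM of 28.9 to 154 and 106 to 156), while 6 of 6 macrophage markers were above 0 (median of 0.27). Their part in the values of the oxidation genes was not tested.

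Treg-treated against vehicle-treated knockouts asks what the treatment changed. Again none of the 30 passed in edgeR, DESeq2 or voom, beside 0.00821% of all genes in edgeR. Hsd17b4, Pdk4 and Cpt1a lay lower in KO Treg at an unadjusted p of 0.05, or 10% of the 30, and 5.08% of all genes lay lower at that p. The log2 fold change was below 0 for 22 of the 30, with a median of -0.11, against 50.3% and -0.0018 for all genes. Without the 3 libraries of most Ucp1, 12 of the 30 were below 0 and the median was 0.05. That fit keeps only KO vehicle 1 and KO vehicle 4 of the KO vehicle group. Without KO vehicle 3 alone, 16 were below 0 with a median of -0.02, and with the number series as a covariate 16 with a median of -0.01. Within the lower number series, which holds 2 KO Treg libraries, 23 were below 0 with a median of -0.08. Here 9 of 9 brown or beige fat markers tested were below 0 (median of -1.496). So were 6 of 6 macrophage markers (median of -0.30). In contrast, 7 of 8 smooth muscle and 6 of 7 skeletal muscle markers were above 0 (medians of 0.66 and 0.47). None of these markers passed the test.

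Treg-treated knockouts against vehicle-treated wild types shares libraries with both comparisons above. None of the 30 passed in edgeR, DESeq2 or voom, and 0% of all genes passed in edgeR. Crat, Etfdh, Eci1, Slc25a20, Pdk4 and Hadha lay lower in KO Treg at an unadjusted p of 0.05, or 20% of the 30, and 1.32% of all genes lay lower at that p. No adjusted p of the 30 was under 0.999992 there. The log2 fold change was below 0 for 27 of the 30 (90%), with a median of -0.24, against 51% and -0.0040 for all genes. Without WT vehicle 1, 20 of the 30 were below 0, the median was -0.04, and 1 gene was left under an unadjusted p of 0.05. Over all libraries, 9 of 9 brown or beige fat markers tested were below 0 (median of -2.58). So were 8 of 8 smooth muscle, 6 of 7 skeletal muscle and 4 of 6 macrophage markers (medians of -1.01, -0.56 and -0.03). None of these markers passed the test. In 1 test of any difference among the 3 groups, none of the 30 passed beside 0.0329% of all genes, and 6 of the 30 (20%) beside 9.44% of all genes had an unadjusted p under 0.05 in edgeR. The smallest adjusted p of that test among the 30 was 0.336.

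**Figure D3:**
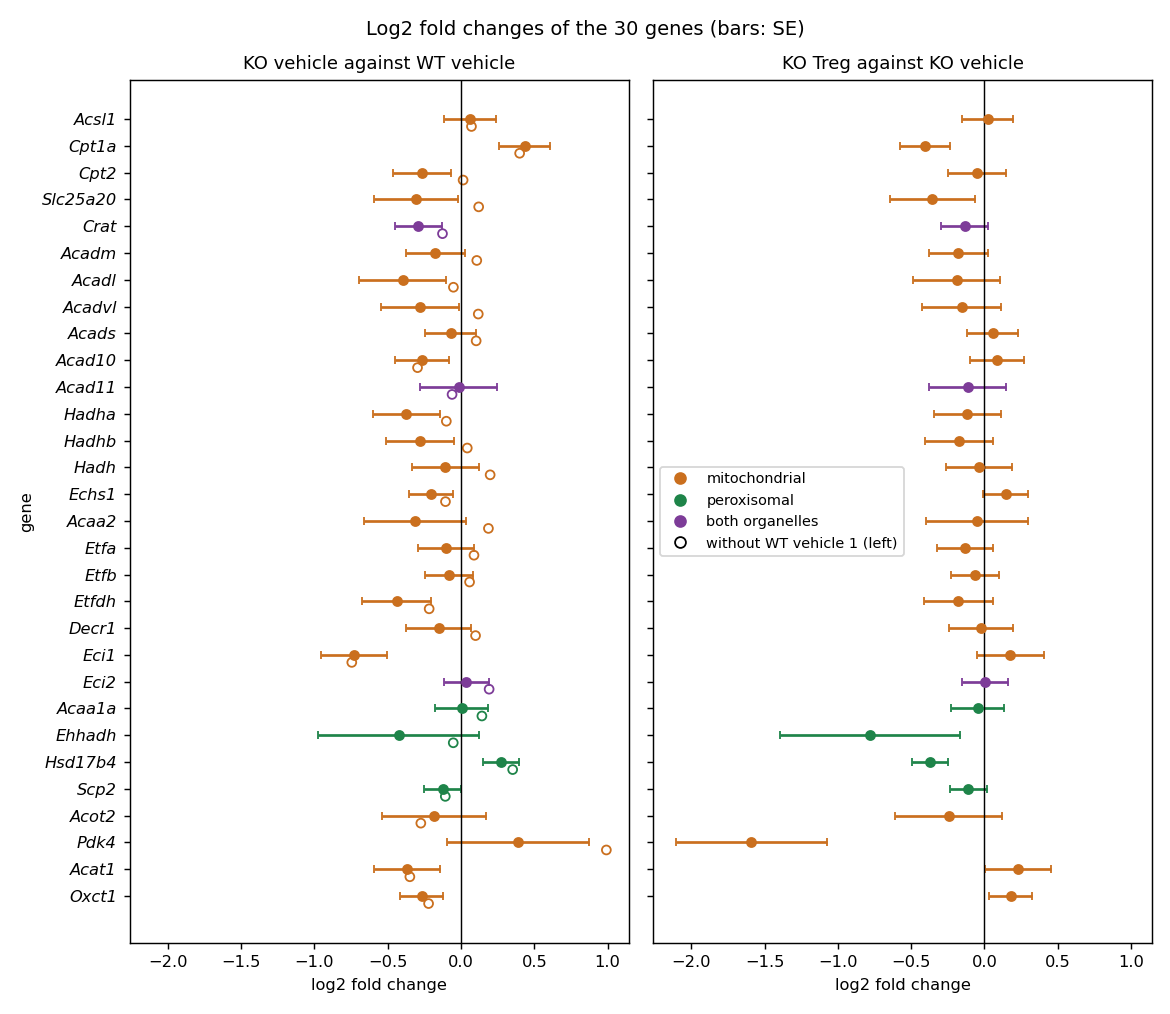
Filled points are the log2 fold changes of the 30 genes with bars of 1 SE, for KO vehicle against WT vehicle (left) and KO Treg against KO vehicle (right), coloured by organelle, and open circles on the left are the values without WT vehicle 1. Most filled points on the left lie below 0, with a median of -0.19, and the open circles lie around 0, with a median of 0.05; Pdk4 has the lowest value on the right.

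Entry into mitochondria begins with activation and the carnitine shuttle, represented by 5 genes. Cpt1a encodes the liver-type carnitine palmitoyltransferase of the outer mitochondrial membrane, the step that malonyl-CoA inhibits. It was at 40.7, 37.3, 42.4 and 48.3 CPM in WT vehicle libraries 1 to 4, at 69.8, 61.1, 47.3 and 49.6 in KO vehicle, and at 29.6, 49.0, 51.1 and 42.2 in KO Treg. KO vehicle 1 and 2 were above every other library, and the other 2 KO vehicle values lay inside the range of the remaining groups. Its log2 fold change was 0.43 ± 0.17 (SE) in KO vehicle against WT vehicle, with an adjusted p of 0.299 in edgeR. For KO Treg against KO vehicle it was -0.41 ± 0.17, with an adjusted p of 0.514 in edgeR. Cpt1a was among the few oxidation genes that were not raised in WT vehicle 1.

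The other carnitine genes had a different profile from Cpt1a. Slc25a20, the carrier that exchanges acylcarnitine for carnitine across the inner membrane, was at 186, 80.7, 57.9 and 91.0 CPM in WT vehicle, at 76.1, 108, 91.9 and 61.7 in KO vehicle, and at 68.1, 64.5, 66.0 and 64.8 in KO Treg. One WT vehicle library stood above all others, and the 4 KO Treg values lay within 4 CPM of each other. Its log2 fold change in KO Treg against WT vehicle was -0.66 ± 0.29 (unadjusted p of 0.0388 in edgeR). Crat, the carnitine acetyltransferase that buffers acetyl-CoA, was at 190, 117, 120 and 135 CPM in WT vehicle, at 107, 130, 127 and 96.3 in KO vehicle, and at 119, 96.7, 107 and 96.9 in KO Treg. Of the 4 KO Treg values, 3 were under the whole WT vehicle range, and the log2 fold change between these groups was -0.43 ± 0.16 (unadjusted p of 0.0168 in edgeR). Crat shares bases with Dolpp1 on the opposite strand, and its counts are uncertain because the strand setting is not given.

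Cpt2, which turns acylcarnitine back into acyl-CoA inside the mitochondrion, was at 439 CPM in WT vehicle 1 and at 194 to 269 CPM in the other 11 libraries. Acsl1, the main long-chain acyl-CoA synthetase of fat cells, was at 2265 ± 189 CPM in WT vehicle, 2364 ± 582 in KO vehicle and 2402 ± 457 in KO Treg (SD over 4 libraries). These means differed by less than the spread within a group: the log2 fold change in KO vehicle against WT vehicle was 0.06, with a 95% interval of -0.28 to 0.41.

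The acyl-CoA dehydrogenases carry out the first step of each turn, and Acadm encodes the medium-chain enzyme. Acadm was at 680, 380, 296 and 385 CPM in WT vehicle, at 425, 389, 420 and 309 in KO vehicle, and at 365, 342, 332 and 324 in KO Treg. The groups overlapped, and KO Treg had the narrowest range. Its log2 fold change was -0.17 ± 0.20 in KO vehicle against WT vehicle and -0.18 ± 0.20 in KO Treg against KO vehicle (adjusted p of 0.793 and 0.875 in edgeR). Without WT vehicle 1 the first of these was 0.11.

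Acadl and Acadvl, for long and very long chains, showed the same single high library. Acadl was at 812 CPM in WT vehicle 1 and at 235 to 511 CPM elsewhere. Acadvl was at 870 CPM in WT vehicle 1 and at 296 to 528 elsewhere, with reads that could include those of Dvl2 on the opposite strand. Acads, for short chains, had 462 CPM in WT vehicle 1, 265 to 419 elsewhere, and log2 fold changes of -0.07 and 0.06 in the first 2 comparisons. Acad10 and Acad11, less studied members of the family, were not raised in WT vehicle 1: Acad10 was at 6.10 to 11.1 CPM over all libraries and Acad11 at 25.1 to 59.9. All 6 dehydrogenases had a log2 fold change below 0 in KO vehicle against WT vehicle, with a median of -0.22, and none passed the test.

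Hydration, the second dehydrogenation and thiolysis are done for long chains by the trifunctional protein. Its alpha subunit gene Hadha (chromosome 5, 30118304 to 30155162, minus strand, mm10) was at 780, 434, 388 and 417 CPM in WT vehicle, at 329, 471, 496 and 264 in KO vehicle, and at 392, 356, 330 and 362 in KO Treg. Its beta subunit gene Hadhb (30155248 to 30184593, plus strand) was at 452, 210, 206 and 245 CPM in WT vehicle, at 224, 249, 283 and 163 in KO vehicle, and at 223, 183, 190 and 218 in KO Treg. The 2 genes, which share the gap printed above, varied together, with a Pearson correlation of log2 CPM of 0.94 over 12 libraries. It was 0.94 after each group's mean was taken off, and both values are given as a description. The pair was not alone in this. Acaa2 with Decr1 (0.95) and Slc25a20 with Acadm (0.94), on different chromosomes, were as high, while the median over all 435 pairs was 0.39. WT vehicle 1 was the highest library for both Hadha and Hadhb, and their correlation was not recomputed without it. The order of the libraries was not the same for Hadha and Hadhb: KO vehicle 1 was among the lowest for Hadha but not for Hadhb. Hadha had a log2 fold change of -0.37 ± 0.23 in KO vehicle against WT vehicle and of -0.12 ± 0.23 in KO Treg against KO vehicle (adjusted p of 0.556 and 0.935 in edgeR). The exons of Hadha overlap Garem2 on the opposite strand, so its counts are uncertain to that extent.

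Shorter chains pass through Echs1, the short-chain hydratase, Hadh, the short-chain hydroxyacyl-CoA dehydrogenase, and Acaa2, the mitochondrial thiolase. Acaa2 was at 315 CPM in WT vehicle 1 and at 91.4 to 169 elsewhere, and Hadh at 643 CPM and at 263 to 479. Echs1 was less spread, at 246 CPM in WT vehicle 1 and at 141 to 223 elsewhere. All 5 genes of these later steps had a log2 fold change below 0 in KO vehicle against WT vehicle, with a median of -0.28, and 4 of the 5 in KO Treg against KO vehicle, with a median of -0.05. None passed the test.

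Electrons from the first dehydrogenation reach ubiquinone through electron transfer flavoprotein (Etfa and Etfb) and its dehydrogenase (Etfdh). Etfdh was at 31.9, 19.9, 15.3 and 20.9 CPM in WT vehicle, at 15.9, 18.1, 19.6 and 11.9 in KO vehicle, and at 16.8, 10.05, 12.9 and 17.97 in KO Treg. All groups overlapped, although 3 of the 4 WT vehicle values were above every knockout library. Etfdh had a log2 fold change of -0.44 ± 0.23 in KO vehicle against WT vehicle (adjusted p of 0.472 in edgeR) and of -0.62 ± 0.24 in KO Treg against WT vehicle (unadjusted p of 0.0184). Exons of Etfdh overlap 4930579G24Rik on the opposite strand, and those of Acsl1, Acad11, Echs1, Eci2 and Oxct1 overlap other genes in the same way, so these counts are uncertain too. Etfa was at 106 CPM in WT vehicle 1 and at 52.4 to 86.0 elsewhere, and Etfb at 1708 CPM and at 984 to 1514. On the same strand, exons of Etfb overlap Gm45233 and Mir7051, and those of Acad11 overlap Gm28305. The counts of these 2 genes are therefore uncertain at any strand setting.

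Unsaturated chains need auxiliary enzymes: Decr1 reduces dienoyl-CoA, and Eci1 and Eci2 shift double bonds. Eci1 (chromosome 17, 24426641 to 24439348) had the clearest group pattern among the 30 genes in the wild-type comparison. It was at 48.0, 44.4, 57.3 and 42.7 CPM in WT vehicle, at 36.1, 38.2, 22.5 and 19.1 in KO vehicle, and at 42.4, 25.1, 25.6 and 37.5 in KO Treg. Every WT vehicle library was above every knockout library of either treatment, in KO Treg only by the margin between 42.7 and 42.4 CPM. Of all genes tested, 2.33% lay lower without overlap in KO vehicle against WT vehicle and 0.821% in KO Treg against WT vehicle, so 1 such gene of 30 (3.33%) is near that background.

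Eci1 did not pass the test. In KO vehicle against WT vehicle its log2 fold change was -0.73 ± 0.23, which had an unadjusted p of 0.00547 and an adjusted p of 0.175 in edgeR. Over 24 other settings the value stayed between -0.91 and -0.59, with adjusted p from 0.0736 to 0.436, and it was -0.75 without WT vehicle 1. Between the knockout groups it was 0.18 ± 0.23 (adjusted p of 0.895). Its partner in peroxisomes and mitochondria, Eci2, was at 81.2 to 146 CPM with a log2 fold change of 0.04 in KO vehicle against WT vehicle. Decr1 was at 561 CPM in WT vehicle 1 and at 261 to 407 elsewhere.

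The peroxisomal route was represented by Ehhadh and Hsd17b4, the L- and D-bifunctional enzymes, Acaa1a, a thiolase, and Scp2, whose longer product is a thiolase for branched chains. Hsd17b4 (chromosome 18, 50128201 to 50196269) was at 149, 123, 101 and 127 CPM in WT vehicle, at 158, 156, 153 and 139 in KO vehicle, and at 107, 121, 125 and 115 in KO Treg. Every KO vehicle library was above every KO Treg library, while WT vehicle overlapped both. For this comparison, 3.03% of all genes lay lower without overlap, and 2 of the 30 oxidation genes did (6.67%), the other being Pdk4. Hsd17b4 had a log2 fold change of -0.37 ± 0.13, with an unadjusted p of 0.00923 and an adjusted p of 0.404 in edgeR. Over 24 other settings it stayed between -0.39 and -0.32, with adjusted p from 0.196 to 0.838, and it was -0.33 without the 3 libraries of most Ucp1. In KO vehicle against WT vehicle it was 0.27 ± 0.13 (adjusted p of 0.385).

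Ehhadh was close to the limit of detection, with 2 to 32 counts a library. It was at 2.57, 0.857, 0.898 and 1.90 CPM in WT vehicle, at 2.51, 1.34, 0.563 and 0.406 in KO vehicle, and at 0.830, 0.914, 0.777 and 0.243 in KO Treg, where the last value, from 2 counts, is under the level of 3 counts. The log2 fold change of -0.78 ± 0.61 in KO Treg against KO vehicle was not distinguishable from 0 at this depth (adjusted p of 0.787 in edgeR). Acaa1a was at 216 ± 46.4 CPM in WT vehicle, 216 ± 51.9 in KO vehicle and 210 ± 26.7 in KO Treg (SD, n = 4 each). Its exons overlap Myd88 on the opposite strand, so its counts are uncertain because the strand setting is not given. In part, its reads also cannot be told from those of its near-identical copy Acaa1b. Scp2 was at 1459 ± 150, 1338 ± 133 and 1239 ± 90.0 CPM in the same order (SD, n = 4 each), with a log2 fold change of -0.24 and a 95% interval of -0.48 to 0.01 in KO Treg against WT vehicle.

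Pdk4 and Acot2 act beside the spiral. Pdk4 (chromosome 6, 5483351 to 5496309) encodes a kinase that switches off pyruvate dehydrogenase when fatty acids are used, and it is a known PPAR target. It was at 30.9, 9.32, 5.03 and 15.6 CPM in WT vehicle, at 28.3, 27.8, 14.6 and 10.8 in KO vehicle, and at 5.45, 9.82, 6.84 and 4.86 in KO Treg. Every KO Treg library was below every KO vehicle library, and WT vehicle overlapped both. Between the knockout groups the log2 fold change of Pdk4 was -1.59 ± 0.52, the largest in size of the 30 in that comparison, with an unadjusted p of 0.00995 and an adjusted p of 0.411 in edgeR. Over 24 other settings it was between -1.84 and -1.27, with adjusted p from 0.181 to 0.838, and it was -1.51 without the 3 libraries of most Ucp1. In KO vehicle against WT vehicle it was 0.39 ± 0.49, and 0.99 without WT vehicle 1, where the adjusted p was 0.384. Acot2, a mitochondrial thioesterase with the near-identical copy Acot1, was at 3.11 to 10.5 CPM.

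**Figure D4:**
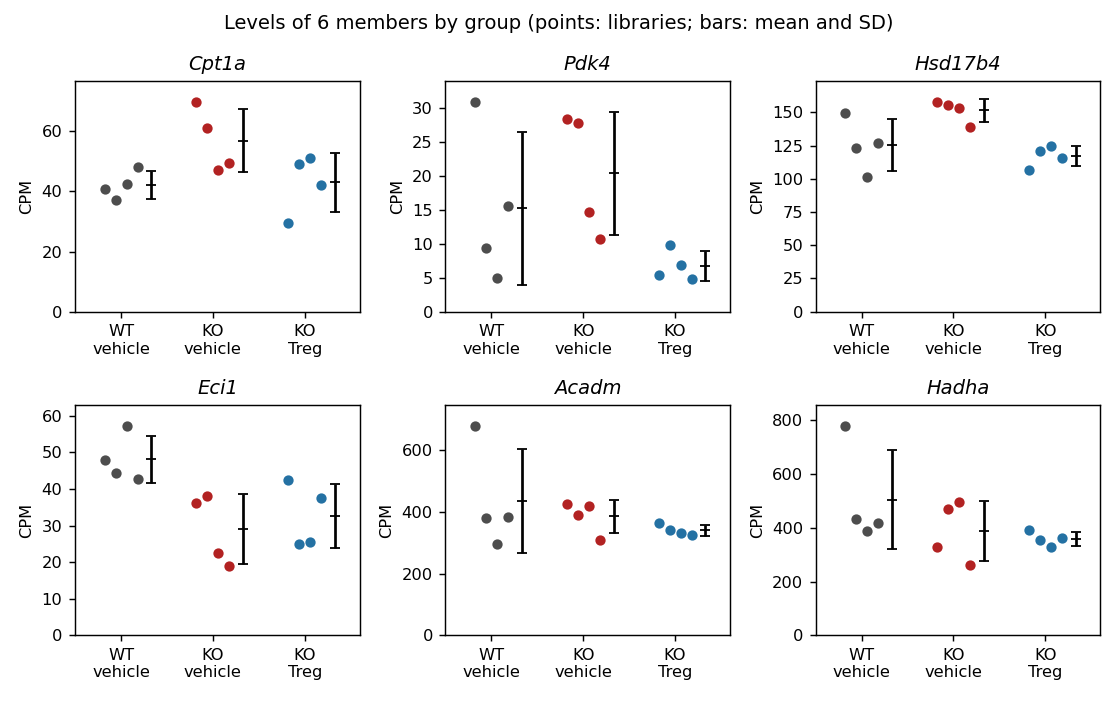
Points are the CPM of single libraries for Cpt1a, Pdk4, Hsd17b4, Eci1, Acadm and Hadha in WT vehicle, KO vehicle and KO Treg (4 each), and bars are the mean and SD, on linear axes from 0. The KO Treg points of Pdk4 and Hsd17b4 lie under all KO vehicle points, the WT vehicle points of Eci1 lie over all others, and 1 WT vehicle point stands apart for Acadm and Hadha.

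Ketone body use was represented by Oxct1, which activates acetoacetate, and Acat1, which splits acetoacetyl-CoA. Acat1 was at 139, 149, 87.0 and 143 CPM in WT vehicle, at 81.2 to 116 in KO vehicle and at 83.0 to 165 in KO Treg. Oxct1 was at 338 to 519 CPM in WT vehicle, 359 to 427 in KO vehicle and 365 to 475 in KO Treg. The log2 fold changes in KO vehicle against WT vehicle were -0.37 ± 0.23 for Acat1 and -0.27 ± 0.15 for Oxct1, and neither gene passed the test.

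The mitochondrial and peroxisomal genes were then set side by side. The mean log2 CPM over the 23 mitochondrial genes was 7.26 ± 0.35 in WT vehicle, 7.10 ± 0.22 in KO vehicle and 6.99 ± 0.03 in KO Treg (SD, n = 4 each). Over the 4 peroxisomal genes it was 6.48 ± 0.31, 6.41 ± 0.19 and 6.16 ± 0.17 in the same order. Within a library, the mitochondrial mean minus the peroxisomal mean was 0.62 to 0.92 in WT vehicle, 0.49 to 0.85 in KO vehicle and 0.65 to 1.10 in KO Treg, and the 3 ranges overlapped. The narrow spread of the mitochondrial mean in KO Treg, from 6.96 to 7.03, contrasted with 6.79 to 7.27 in KO vehicle and 7.01 to 7.78 in WT vehicle. KO Treg also held no library with more than 43.2 CPM of Ucp1, and its part in that spread was not tested.

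The medians of the log2 fold changes differed in where they lay. In KO vehicle against WT vehicle, 20 of 23 mitochondrial genes were below 0 with a median of -0.27, and 2 of 4 peroxisomal genes with a median of -0.06. Without WT vehicle 1, the mitochondrial count was 9 of 23 with a median of 0.06, and the peroxisomal one stayed at 2 of 4 with a median of 0.04. Without the 3 libraries of most Ucp1, 17 of 23 mitochondrial genes were below 0 in the same comparison, with a median of -0.17. Of the 4 peroxisomal genes, 1 was below 0, with a median of 0.16. Between the knockout groups, 16 of 23 mitochondrial genes were below 0 with a median of -0.07, and 4 of 4 peroxisomal genes with a median of -0.24. Without the 3 libraries of most Ucp1, 7 of 23 mitochondrial genes were below 0 there, with a median of 0.11, and 4 of 4 peroxisomal genes, with a median of -0.19. Only KO vehicle 1 and KO vehicle 4 stand for KO vehicle in that fit. The difference between the 2 sets was not tested, and 4 genes, 1 of them near the limit of detection, are few for a median.

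Across libraries most oxidation genes varied in the same direction. Over the 435 pairs among the 30 genes, the median correlation of log2 CPM was 0.39, and 354 pairs were above 0 (12 libraries that share scaling and depth, as a description). It was 0.41 within the mitochondrial set, 0.35 within the peroxisomal set and 0.34 between them, so pairs across organelles were about as alike as pairs within one. The matching values over all genes tested were not computed, so these have no background beside them. Nor were they recomputed without WT vehicle 1, the highest library for 22 of the 30 genes, and its part in them was not tested. Measured as the median correlation with the mitochondrial genes after group means were taken off, Slc25a20 (0.74), Acadm (0.70), Crat (0.69) and Hadhb (0.69) were the most typical. Cpt1a (-0.02), Acot2 (0.04), Eci1 (0.11), Acat1 (0.11) and Acad10 (-0.17) were the least, and Hsd17b4, although peroxisomal, was at 0.55.

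For 6 pairs with Acadm, permutation tests were run over the 12 libraries with 1e+05 resamples, two-sided and adjusted over the 6 pairs. The pair with Ucp1 was among the 6 and is not read, for the reason above. Acadm and Hadha had a Pearson r of 0.838 (permutation p of 0.0036, adjusted 0.0108) but a Spearman rho of 0.580 (permutation p of 0.0521, adjusted 0.0625). Acadm and Pdk4 had an r of 0.739 (permutation p of 0.00085, adjusted 0.0051) and a rho of 0.825 (permutation p of 0.00152, adjusted 0.00912). Acadm and Ehhadh had an r of 0.675 (permutation p of 0.0107, adjusted 0.0161) and a rho of 0.636 (permutation p of 0.0294, adjusted 0.0442). Acadm and Hsd17b4 had an r of 0.588 (permutation p of 0.0311, adjusted 0.0374) and a rho of 0.734 (permutation p of 0.00875, adjusted 0.0263). Over the pooled libraries Acadm, a mitochondrial gene, thus varied with both peroxisomal bifunctional enzymes, of which Ehhadh is near the limit of detection. The permutations did not keep libraries within their groups. After group means were taken off, r was 0.84 with Hadha, 0.82 with Pdk4, 0.60 with Ehhadh and 0.83 with Hsd17b4, as a description.

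These relations were recomputed without WT vehicle 1 and WT vehicle 3, the 2 libraries farthest from the median of Acadm. On the 10 left, r was 0.664 with Hadha, 0.680 with Pdk4 and 0.670 with Ehhadh (permutation p of 0.0350, 0.0324 and 0.0367), and 0.545 with Hsd17b4 (permutation p of 0.106), so the last kept its direction but was no longer under 0.05. Within the 8 libraries of the lower number series r was 0.877 with Hadha, 0.736 with Ehhadh, 0.642 with Pdk4 and 0.421 with Hsd17b4 (permutation p of 0.00736, 0.0204, 0.0591 and 0.311). The higher series holds 4 libraries, too few for a value. Acadm showed no relation with Fasn, the fatty acid synthase gene, whose level ran from 558 to 19218 CPM: r was -0.056 and rho -0.203 (permutation p of 0.879 and 0.530).

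The rest of the pathway was read from lists of other genes, in which no gene passed the test in any comparison. These lists were read in the main fit only, not without WT vehicle 1 or the other libraries of most Ucp1. Of all genes, 50.8% were below 0 in KO vehicle against WT vehicle and 50.3% in KO Treg against KO vehicle. The list of other mitochondrial oxidation genes held 22, of which Ech1 and the peroxisomal thiolase gene Acaa1b were also in the list of other peroxisomal genes. Of the 20 without them, 17 had a log2 fold change below 0 in KO vehicle against WT vehicle and 10 in KO Treg against KO vehicle, with medians of -0.32 and 0.07 (all 22: 18 and 12, medians of -0.32 and -0.01). Of 31 other peroxisomal genes tested, 21 and 14 were below 0, with medians of -0.12 and 0.02. Of 15 regulators tested, among them Ppara, 12 and 5 were below 0, with medians of -0.31 and 0.09. Ppara, the PPAR of oxidative tissues, was at 141, 18.2, 25.5 and 38.3 CPM in WT vehicle, at 42.8, 75.2, 45.8 and 16.5 in KO vehicle, and at 14.7, 33.6, 31.9 and 23.1 in KO Treg, with WT vehicle 1 again at the top.

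Of 10 genes tested that PPARs are known to raise, 7 were above 0 in KO vehicle against WT vehicle, with a median of 0.29. In KO Treg against KO vehicle 9 were below 0, with a median of -0.83. Of all genes, 50.8% and 50.3% were below 0 in these comparisons. The list shares Cidea with the brown or beige fat markers and was not read in fits without the libraries of most Ucp1. Angptl4, which encodes an inhibitor of lipoprotein lipase, was at 583, 610, 541 and 734 CPM in WT vehicle, at 841, 903, 997 and 1101 in KO vehicle, and at 455, 759, 938 and 540 in KO Treg. Every KO vehicle library was above every WT vehicle library, as for 4.17% of all genes and for 1 of these 10, and the adjusted p was 0.166 in edgeR for a log2 fold change of 0.64 ± 0.19. Between the knockout groups it was -0.51 ± 0.19 (adjusted p of 0.461). Plin5, a lipid droplet protein of oxidative cells, had a log2 fold change of -1.38 ± 0.67 there (adjusted p of 0.605), and its 4 highest libraries were the 3 of most Ucp1 and KO vehicle 1.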

How the data were processed

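Total RNA of gonadal white fat was made into QuantSeq 3' libraries, per the labels' protocols, so each count is of reads from the 3' part of a transcript. Untransformed counts by gene symbol were deposited for 12 libraries, 4 in each of 3 groups. The submitters' processing notes name the build mm10 and the tools HTSeq 0.6.1, TopHat2 2.1.1, SAMtools 1.3.1 and BWA 0.7.12; strand setting and annotation: not given in the sources used here. From these counts, filterByExpr in edgeR 4.0.16 (R 4.3.3) kept 12175 genes, TMM scaled the totals, and 1 robust quasi-likelihood fit of all 3 groups was adjusted by the Benjamini-Hochberg method over all genes kept (threshold 0.05). CPM use TMM-scaled totals, log2 CPM a prior count of 2, and an SE is the log2 fold change over the square root of F. Alternatives included DESeq2 1.42.0, voom with quality weights in limma 3.58.1, other scalings and filters, the number series of the labels and leaving out libraries. The fit was tested on simulated data.

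The genes, lists and tests were chosen with earlier results of these data known. Values in every library are given for Cpt1a, Acadm, Hadha, Pdk4, Ehhadh, Hsd17b4 and the 4 genes of smallest unadjusted p in each comparison; Hadhb, Acat1, Cpt1b, Ppara, Angptl4 and the Plin5 value were added after values were seen. Positions are from GENCODE M21 and promoters from RefSeq, matched by symbol (25 of 30).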

Additional observations from a re-analysis of the deposited data

Results flagged for a closer look

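In each of 3 groups, the 4 libraries were examined for each of the 30 genes, and in 8 of these 90 groups 1 library stood far from the other 3. Chance flags about 1 in 20 such groups, and genes that vary together are not separate instances. WT vehicle 1 was the library that stood apart in 5 of the 8. It was the highest of its group for Acadvl (870 CPM, with the other 3 at 352 to 401), Acads (462 CPM, others 286 to 310), Hadha (780 CPM, others 388 to 434), Hadhb (452 CPM, others 206 to 245) and Etfb (1708 CPM, others 1130 to 1218). WT vehicle 3, the library of fewest counts, was the lowest of its group for Scp2 (1237 CPM, others 1513 to 1567) and Acat1 (87.0 CPM, others 139 to 149). KO Treg 2 was the lowest of its group for Acads (294 CPM, others 346 to 347).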

How the results depend on the processing

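None of the 30 genes passed an adjusted p of 0.05 in any comparison under any of the 24 settings run for each. Counts over all genes moved more. In KO Treg against KO vehicle, where 1 gene passed, 61 did with DESeq2 and 0 with RLE scaling, a minimum of 1 CPM, 2 groups fitted at a time, a covariate for the number series, the lower series alone, a fit that was not robust, without the 3 libraries of most Ucp1, without the 2 with placental transcripts, and without any 1 library (0 to 0). In KO vehicle against WT vehicle, where 34 passed, 259 did with DESeq2, 0 with the series as a covariate, with the lower series alone and without the Ucp1 libraries, 3 without the placental ones, and 1 to 125 without any 1 library. In KO Treg against WT vehicle, 1 passed with DESeq2 and 0 to 0 without any 1 library. The 2 settings without Ucp1 or placental libraries were chosen after seeing the data. Without the Ucp1 libraries, only KO vehicle 1 and KO vehicle 4 are left in KO vehicle. The test of any difference among the 3 groups, which 4 genes and none of the 30 passed (6 at an unadjusted p of 0.05), was not run under other settings.

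Without any 1 library, the median log2 fold change of mitochondrial genes was -0.32 to 0.0582 in KO vehicle against WT vehicle (0.0582 without WT vehicle 1) and -0.41 to -0.0257 in KO Treg against WT vehicle, where it was -0.0264 without the Ucp1 libraries. For KO Treg against KO vehicle it was -0.12 to 0.0031 without any 1 library (0.0031 without KO vehicle 3), 0.035 with the series as a covariate, 0.0184 with voom and 0.11 without the Ucp1 libraries. In KO Treg against KO vehicle, Hadha was at 0.0184 with voom, 0.0649 with the series as a covariate, 0.29 without the Ucp1 libraries and -0.24 to 0.0357 without any 1 library, and Acadm was at 0.0116 with the series as a covariate. Without the Ucp1 libraries, Etfdh was at 0.0746 and Crat at 0.0568 there, and in KO vehicle against WT vehicle Acadm was at 0.0374 and Ehhadh at 0.21. In that last comparison, Pdk4 was at -0.00074 with the lower series alone, and Acadm ran from -0.33 to 0.11 and Slc25a20 from -0.52 to 0.12 without any 1 library. Cpt1a in KO Treg against WT vehicle was at -0.0447 without the placental libraries and -0.0585 to 0.17 without any 1 library. The relation of Acadm with Hadha missed the threshold as rho (0.580), and that with Hsd17b4 (0.545) did so without the 2 libraries farthest from the median of Acadm. For Ucp1, whose separate ranges leave a pooled r unread, r was 0.468 without those 2. The causes were not tested. Ehhadh has no value with a minimum of 1 CPM, where it was not tested. No paired analysis was possible because the replicate numbers follow accession order and pair no animals. The depth leaves Ehhadh near its limit.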
